A study of Homo sapiens with 12 samples.

Results

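The GIMAP genes encode GTPases of the immunity-associated protein family, and the 7 human members GIMAP1, GIMAP2, GIMAP4, GIMAP5, GIMAP6, GIMAP7 and GIMAP8 were read from the gene tables of 2 T-cell acute lymphoblastic leukaemia (T-ALL) lines. They were selected by symbol, with earlier results of these data known, and each matched 1 of the 58288 rows of both tables. The study depleted SHQ1, an assembly factor of H/ACA ribonucleoproteins, in the T-ALL lines KOPTK1 and HPB-ALL to ask how this affects RNA splicing and cell survival. Each line was infected with lentivirus carrying pLKO.1 shRNA against SHQ1 (shSHQ1) or against GFP (shGFP, the control), so that the control cells too carried an shRNA vector. Puromycin selection was for 48 h at 2 µg/ml in all cells, and total RNA was depleted of ribosomal RNA before sequencing. The labels give 4 groups of 3 libraries: KOPTK1 with shGFP, KOPTK1 with shSHQ1, HPB-ALL with shGFP and HPB-ALL with shSHQ1.

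The 12 library columns are headed only by the numbers 1 to 6 (KOPTK1) and 7 to 12 (HPB-ALL), which tie a library to a cell line and not to an shRNA. The effect of SHQ1 shRNA on the GIMAP genes was therefore not analysed here, and the comparison made is HPB-ALL against KOPTK1, with 6 libraries a line that hold both shRNAs. The model is limited to 1 line against 1 line. The sources do not say whether libraries of a group came from separate cultures, so p-values measure the spread between these libraries, which may be technical. That spread also holds any effect of the shRNA, which was not a term of the test.

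GIMAP proteins are found mainly in lymphocytes, where most are anchored to the membranes of the endoplasmic reticulum, Golgi, lysosomes or lipid droplets and bind GTP through a domain named AIG1. Some members, GIMAP2 among them, assemble into scaffolds on the membrane when they bind GTP, and GIMAP7 can stimulate GTP hydrolysis by another member. Loss of GIMAP5 depletes peripheral T cells in rats, mice and people, and loss of GIMAP1 in mice depletes mature T and B cells, so the family is known for keeping resting lymphocytes alive.

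The genes form a cluster of 293.4 kb on chromosome 7 (GRCh38), 6 on the plus strand and GIMAP6 on the minus strand. In order along the chromosome, GIMAP8 (ENSG00000171115) is at chr7:150450630-150479392, GIMAP7 (ENSG00000179144) at chr7:150514830-150521073 and GIMAP4 (ENSG00000133574) at chr7:150567277-150573955. They are followed by GIMAP6 (ENSG00000133561) at chr7:150625375-150632648, GIMAP2 (ENSG00000106560) at chr7:150685700-150693641, GIMAP1 (ENSG00000213203) at chr7:150716557-150724284 and GIMAP5 (ENSG00000196329) at chr7:150722253-150744063. The tables also hold a readthrough entry, GIMAP1-GIMAP5, and a pseudogene, GIMAP3P, past the end of GIMAP5. GIMAP5 shares 76.2% of its exon bases with GIMAP1 or the readthrough entry, and GIMAP1 shares 12.4%. The readthrough count was 1.05 to 1.10 times the GIMAP5 count in every library, and how reads in shared exons were assigned is not given in the sources used here, so the level of GIMAP5, more than that of GIMAP1, is uncertain.

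Promoter sequences, taken as the 250 bases before and 50 after the RefSeq start of each gene, were available for all 7 members (GRCh38.p14). They are shown for the members with the largest fold changes below, GIMAP4, GIMAP6 and GIMAP5 being higher in HPB-ALL than in KOPTK1 and GIMAP2 lower, and for GIMAP7, whose smaller difference was lost in some fits. The letters AGGAAG, or CTTCCT on the other strand, are in capitals. They hold the GGAA core that ETS transcription factors recognise, and were searched for after the sequences had been read. The windows are chr7:150567140-150567439 (plus), chr7:150632336-150632635 (minus), chr7:150737168-150737467 (plus), chr7:150685456-150685755 (plus) and chr7:150514622-150514921 (plus), each 5′ to 3′ on the strand of the gene. For each member shown, the RefSeq start used here lies inside the gene entry that was counted. The windows of GIMAP6 and GIMAP5 lie wholly inside their entries, so they do not precede the first base of the gene as counted.
GIMAP4: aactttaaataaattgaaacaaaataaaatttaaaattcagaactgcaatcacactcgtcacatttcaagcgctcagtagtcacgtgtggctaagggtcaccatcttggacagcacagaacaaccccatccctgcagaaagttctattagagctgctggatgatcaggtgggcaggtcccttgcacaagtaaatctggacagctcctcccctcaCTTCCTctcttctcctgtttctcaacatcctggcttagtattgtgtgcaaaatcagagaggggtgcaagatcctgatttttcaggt
GIMAP6: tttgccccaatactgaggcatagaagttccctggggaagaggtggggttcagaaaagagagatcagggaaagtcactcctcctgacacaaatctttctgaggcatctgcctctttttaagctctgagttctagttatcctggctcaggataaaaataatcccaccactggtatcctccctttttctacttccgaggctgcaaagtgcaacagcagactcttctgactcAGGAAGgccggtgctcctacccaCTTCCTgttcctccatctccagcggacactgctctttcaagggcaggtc
GIMAP5: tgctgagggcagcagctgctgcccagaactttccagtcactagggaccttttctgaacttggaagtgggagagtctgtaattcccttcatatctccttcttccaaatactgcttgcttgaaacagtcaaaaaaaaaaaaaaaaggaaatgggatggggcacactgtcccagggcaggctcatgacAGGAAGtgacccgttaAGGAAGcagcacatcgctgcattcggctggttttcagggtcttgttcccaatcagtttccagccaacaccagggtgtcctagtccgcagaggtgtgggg
GIMAP2: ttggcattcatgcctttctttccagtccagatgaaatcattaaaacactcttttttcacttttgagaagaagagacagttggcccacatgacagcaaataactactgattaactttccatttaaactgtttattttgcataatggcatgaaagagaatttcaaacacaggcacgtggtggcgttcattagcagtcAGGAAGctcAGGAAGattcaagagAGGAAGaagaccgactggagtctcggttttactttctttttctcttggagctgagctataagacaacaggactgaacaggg
GIMAP7: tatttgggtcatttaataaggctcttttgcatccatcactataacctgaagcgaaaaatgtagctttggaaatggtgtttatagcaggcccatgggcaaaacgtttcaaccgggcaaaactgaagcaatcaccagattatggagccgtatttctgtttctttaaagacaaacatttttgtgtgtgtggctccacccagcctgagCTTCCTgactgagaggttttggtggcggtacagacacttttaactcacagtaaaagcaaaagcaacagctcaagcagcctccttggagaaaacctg

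All 7 members held AGGAAG or CTTCCT, against 33.6% of 35116 promoters of the same length. The letters having been chosen from these sequences, this share is no test. The 12 matches in the members began between 65 bases before the start and 1 base after it. A match lay in that window in 9.95% of the 35116 promoters. The window was drawn from the members themselves, so this share too is no test. The other letters searched on both strands were CGGAAG, another ETS match (GIMAP6 alone, and 19.5% of promoters), TGGGAA, an RBPJ match (GIMAP1 and GIMAP5, and 24% of promoters), TGTGGT for RUNX (no member, and 13.1% of promoters) and AGATAA for GATA (no member, and 10.3% of promoters). AGGAAG and CGGAAG share their last 5 letters but cannot match at the same place. The GIMAP windows had a GC content of 40.3% to 50.7%, below the median of 58.7% over all promoters, and 3 to 8 CG dinucleotides against a median of 14. Matches to letters are a description of the sequence and not of binding.

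Total counts ranged from 33905452 to 36098045 in KOPTK1 libraries 1, 2 and 3 and from 22884785 to 25938761 in KOPTK1 libraries 4, 5 and 6. They ranged from 36792076 to 42842791 in the HPB-ALL libraries. SHQ1, the target of the shRNA, was at 44.3 to 46.0 RPKM (reads per kilobase of exon, scaled to library size) in KOPTK1 libraries 1, 2 and 3. It was at 39.6 to 41.9 in KOPTK1 libraries 4, 5 and 6. In HPB-ALL it was at 71.1 to 72.3 in libraries 7, 8 and 9 and at 46.1 to 48.8 in libraries 10, 11 and 12. Of the 12 T-lineage markers, CD3D, CD3E, CD3G, CD247, CD7, LCK and BCL11B were above 36 RPKM in every library and CD2 and CD5 above 12, whereas PTCRA (1.82 to 4.58), CD8A (0.799 to 6.84) and CD4 (0.326 to 1.11) were low. TLX3, the oncogene that HPB-ALL cells are commonly described as expressing, had at most 2 counts in the HPB-ALL libraries, while TAL1 was at 39.3 to 45.5 RPKM there, so that a defining marker of the labelled line was absent. LMO2, the oncogene activated in KOPTK1, was at 0.966 to 2.52 RPKM in KOPTK1 and at 0.0781 to 0.263 in HPB-ALL. Below, HPB-ALL and KOPTK1 mean the libraries labelled so.

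KOPTK1 libraries 1, 2 and 3 stood apart from libraries 4, 5 and 6. A chi-square test of counts gave 18.1 to 21.4 per gene for pairs across these sets and 1.75 to 5.65 for pairs within them. HPB-ALL split less, into libraries 7, 8 and 9 and libraries 10, 11 and 12. Pairs across these HPB-ALL sets gave 3.76 to 5.43 and pairs within them 2.05 to 3.54. In 47.7% of the 27834 genes tested, the values of libraries 1, 2 and 3 did not overlap those of libraries 4, 5 and 6, and in 32.2% the former also lay between the latter and the HPB-ALL values. CD79A, a B-lineage gene also expressed in some T-ALL, was at 24.0, 24.7 and 24.1 RPKM in libraries 1, 2 and 3, at 7.18, 6.83 and 5.92 in libraries 4, 5 and 6 and at 40.0 to 46.6 in HPB-ALL. TAL1 was at 26.5, 23.7 and 25.9 RPKM, at 12.5, 12.8 and 12.6, and at 39.3 to 45.5 in the same order. SHQ1 too did not overlap between KOPTK1 libraries 1, 2 and 3 and libraries 4, 5 and 6, nor between the HPB-ALL sets. The sets, like the shRNA groups of a line, have 3 libraries each, and the labels do not say whether they are those groups. What sets the libraries of either line apart was not tested. Results are given with all libraries and without either KOPTK1 set, a step added after the data were seen. Fits without either HPB-ALL set were not run.

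Every GIMAP gene passed the filter on low counts. In KOPTK1, the order of the mean levels was GIMAP2, GIMAP7, GIMAP6, GIMAP5, GIMAP4, GIMAP1 and GIMAP8, but GIMAP2 and GIMAP7 (24.5 ± 2.2 and 24.2 ± 1.3 RPKM, SD, n = 6) overlapped, as did GIMAP6 and GIMAP5 (12.3 ± 3.2 and 11.98 ± 2.56) and GIMAP4 and GIMAP1 (5.21 ± 2.51 and 4.28 ± 0.62). In HPB-ALL, GIMAP7 (21.8 ± 1.6 RPKM, SD, n = 6), GIMAP6 (21.8 ± 0.74), GIMAP5 (19.9 ± 0.74) and GIMAP2 (18.9 ± 0.87) each overlapped the next in order. They were followed, with no overlap, by GIMAP4 (11.7 ± 0.45), GIMAP1 (5.51 ± 0.21) and GIMAP8 (0.231 ± 0.046). Thus 4 members were at similar levels in HPB-ALL, whereas in KOPTK1 GIMAP2 and GIMAP7 stood above all others in every library. The place of GIMAP5 in both orders is uncertain, as the readthrough entry that shares its exons held 1.05 to 1.10 times its count. GIMAP8 was the lowest member in both lines, at 12 to 62 counts a library. The 7 members summed to 75.8 to 91.0 RPKM in KOPTK1 and to 96.9 to 104 RPKM in HPB-ALL, leaving out the readthrough entry.

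In HPB-ALL against KOPTK1, 4 of the 7 members (GIMAP1, GIMAP4, GIMAP5 and GIMAP6) were higher and 2 (GIMAP2 and GIMAP7) were lower at an adjusted p under 0.05 (edgeR quasi-likelihood test, Benjamini-Hochberg over 27834 genes). Of all genes tested, 30.6% were higher and 33.2% lower by the same rule, so that most genes of any kind differed. With all 12 libraries, only GIMAP4 changed at least 2-fold, where 5.25% of all genes were higher and 9.91% lower by that rule. The median log2 fold change was 0.36 over the 7 members and -0.03 over all genes tested, and the median size of a change was 0.37 and 0.35. The ranges of the lines did not overlap for GIMAP4, GIMAP5 and GIMAP6, higher in HPB-ALL as 21.1% of all genes were, nor for GIMAP2, lower in HPB-ALL as 22.6% were. In RNA from bulk cultures, fewer cells with a transcript and less of it per cell cannot be told apart.

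GIMAP4, which has been linked to the timing of T-cell death and to cytokine secretion, had the largest difference of the 7. It was at 7.06, 7.44, 7.93, 2.66, 3.20 and 2.94 RPKM in KOPTK1 libraries 1 to 6 and at 11.6, 11.3, 11.2, 12.1, 11.7 and 12.3 in HPB-ALL libraries 7 to 12. Every HPB-ALL library lay above every KOPTK1 library, and KOPTK1 libraries 4, 5 and 6 were the lowest. The log2 fold change, HPB-ALL minus KOPTK1, was 1.15 (SE 0.25, adjusted p = 1.0e-03 by edgeR), which is 2.22-fold. Without KOPTK1 libraries 1, 2 and 3 it was 2.02 (SE 0.07, adjusted p = 5.1e-15), and without libraries 4, 5 and 6 it was 0.65 (SE 0.05, adjusted p = 6.3e-08). The direction was therefore the same in each, but the size ranged from 1.57-fold to 4.05-fold with the KOPTK1 libraries used.

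GIMAP6, which binds the autophagy protein GABARAPL2, followed the same order of libraries. It was at 14.96, 14.8, 15.9, 9.59, 8.998 and 9.68 RPKM in KOPTK1 and at 21.9, 22.2, 20.5, 21.3, 22.2 and 22.6 in HPB-ALL. Again no ranges overlapped and KOPTK1 libraries 4, 5 and 6 were lowest. The log2 fold change was 0.82 (SE 0.13, adjusted p = 1.2e-04 by edgeR) with all libraries, 1.23 without KOPTK1 libraries 1, 2 and 3 (SE 0.04, adjusted p = 3.3e-15) and 0.52 without libraries 4, 5 and 6 (SE 0.04, adjusted p = 1.7e-08).

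GIMAP5, the member on lysosomal membranes whose loss causes lymphopenia, was at 14.5, 14.3, 14.2, 9.94, 9.72 and 9.30 RPKM in KOPTK1 and at 20.4, 18.8, 20.6, 19.6, 20.7 and 19.5 in HPB-ALL. KOPTK1 libraries 4, 5 and 6 were again the lowest of the 12. The log2 fold change was 0.73 (SE 0.11, adjusted p = 6.8e-05 by edgeR), with 1.07 without libraries 1, 2 and 3 (adjusted p = 1.8e-13) and 0.48 without libraries 4, 5 and 6 (adjusted p = 7.7e-08). The readthrough entry GIMAP1-GIMAP5, which shares its reads, gave 0.73 (SE 0.11, adjusted p = 5.4e-05), or 1.05 and 0.49 without these sets in the same order, and is no separate measurement. With the counts of GIMAP1, GIMAP5 and the readthrough entry added into 1, the log2 fold change was 0.65 (adjusted p = 5.8e-05).

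GIMAP1, needed for the survival of mature lymphocytes in mice, was at 4.64, 5.28, 4.26, 4.14, 3.55 and 3.79 RPKM in KOPTK1 and at 5.28, 5.62, 5.42, 5.59, 5.34 and 5.83 in HPB-ALL. KOPTK1 library 2 reached the lowest HPB-ALL library, so the ranges overlapped slightly. The log2 fold change was 0.36 (SE 0.08, adjusted p = 0.0014 by edgeR), 0.55 without KOPTK1 libraries 1, 2 and 3 (adjusted p = 9.7e-08) and 0.23 without libraries 4, 5 and 6 (adjusted p = 0.0064).

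GIMAP2, which can reside on lipid droplets, differed the other way. It was at 22.4, 22.7, 23.1, 24.8, 27.6 and 26.8 RPKM in KOPTK1 and at 19.99, 17.6, 18.8, 18.9, 18.6 and 19.8 in HPB-ALL. KOPTK1 libraries 4, 5 and 6 were the highest of the 12, and no HPB-ALL library reached the lowest KOPTK1 library. The log2 fold change was -0.37 (SE 0.06, adjusted p = 7.9e-05 by edgeR), -0.45 without libraries 1, 2 and 3 (adjusted p = 8.6e-08) and -0.26 without libraries 4, 5 and 6 (adjusted p = 1.4e-04).

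GIMAP7, a partner of GIMAP2 in stimulating GTP hydrolysis, was at 22.5, 26.4, 24.4, 24.5, 23.4 and 24.0 RPKM in KOPTK1 and at 19.4, 21.1, 21.0, 23.4, 22.0 and 23.7 in HPB-ALL. The ranges overlapped, and the highest HPB-ALL values were in libraries 10, 11 and 12. Its log2 fold change of -0.15 (SE 0.06, adjusted p = 0.027 by edgeR) did not hold up when any of libraries 2, 3, 7, 8 or 9 was left out (adjusted p between 0.051 and 0.07, log2 fold change -0.14 to -0.12), nor without KOPTK1 libraries 1, 2 and 3 (-0.12, adjusted p = 0.091). Without libraries 4, 5 and 6 it was -0.16 (adjusted p = 0.045).

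GIMAP8, the largest member, with several GTPase domains, was at 0.165, 0.142, 0.407, 0.157, 0.222 and 0.126 RPKM in KOPTK1 and at 0.222, 0.303, 0.269, 0.201, 0.210 and 0.181 in HPB-ALL. Library 3 was the highest of all 12. The log2 fold change was 0.16 (SE 0.27, adjusted p = 0.62 by edgeR), which did not pass. Without library 3 alone it was 0.52 (adjusted p = 0.03), without libraries 1, 2 and 3 it was 0.47 (adjusted p = 0.11), and without libraries 4, 5 and 6 it was -0.05 (adjusted p = 0.91). Library 3 also had the most genes with a count, 41322 against 36730 to 38694 in the others, and its part in the GIMAP8 value was not tested. Some other low genes were highest of all 12 in library 3 too, among them VWF (0.447 RPKM), MPO (0.350), TMEM176B (0.291) and TMEM176A (0.249). LYZ, CD14, KLRF1 and HBB, also low, were highest in other libraries. The pseudogene GIMAP3P, at 0.454 to 0.993 RPKM over all libraries, had a log2 fold change of -0.12 (SE 0.24, adjusted p = 0.68), and of -0.16 and -0.06 without libraries 1, 2 and 3 and without libraries 4, 5 and 6.

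**Figure D1:**
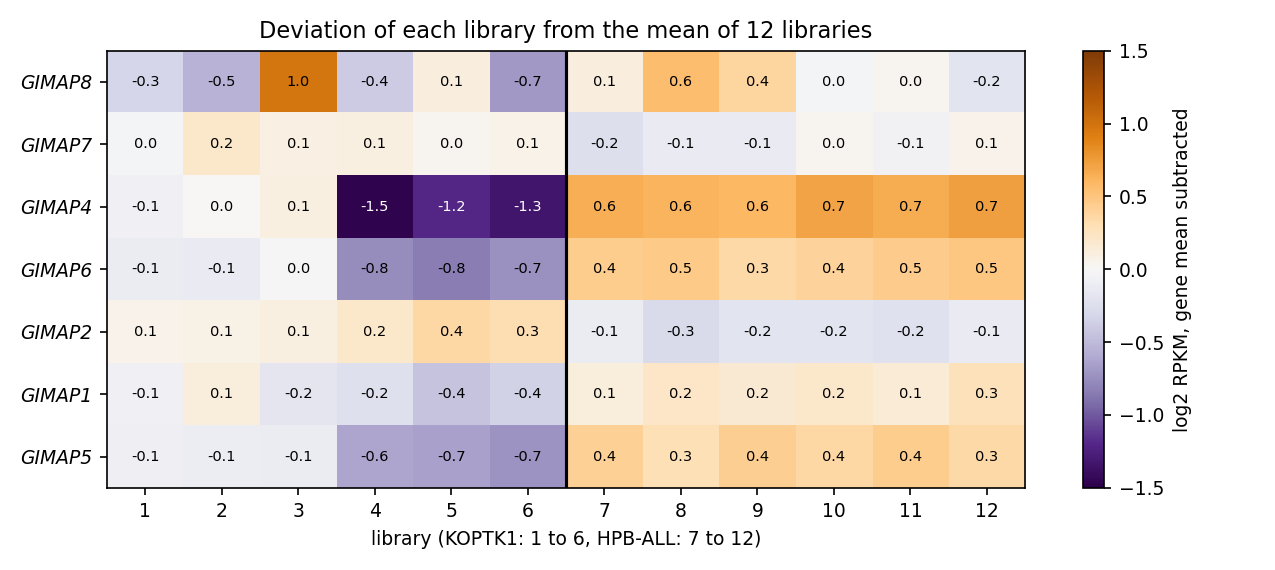
Deviation of each library (columns) from the mean of the 12 libraries for each GIMAP gene (rows), in log2 RPKM, with the value printed in each cell, purple below the mean and orange above. GIMAP4, GIMAP6 and GIMAP5 are lowest in KOPTK1 libraries 4, 5 and 6, where GIMAP2 is highest, and GIMAP8 is highest in library 3.

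Across the cluster, GIMAP2, lower in HPB-ALL, lies between GIMAP6 and GIMAP1, both higher. GIMAP7, whose lower value was lost in some fits as given above, lies on the far side of GIMAP4. Within KOPTK1, the values of libraries 1, 2 and 3 did not overlap those of libraries 4, 5 and 6 for 5 of the 7 members, or 71.4% against 47.7% of all genes, the exceptions being GIMAP7 and GIMAP8. For GIMAP2, GIMAP4, GIMAP5 and GIMAP6, or 57.1% of the members against 32.2% of all genes, libraries 1, 2 and 3 lay between libraries 4, 5 and 6 and HPB-ALL. Over the 6 KOPTK1 libraries, Pearson's r of the log levels was 0.98 for each pair of GIMAP4, GIMAP5 and GIMAP6 and -0.94 to -0.86 between these and GIMAP2. The 6 points fall into the same 2 sets of libraries, and the values are a description. In HPB-ALL, the pairs of GIMAP4, GIMAP5 and GIMAP6 were at -0.42 to 0.42.

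In KOPTK1 libraries, GIMAP4 took 3.51% to 8.78% of the summed GIMAP level and GIMAP2 24.9% to 35.97%, whereas in HPB-ALL libraries GIMAP4 took 11.4% to 12% and GIMAP2 18.2% to 20.2%. The gap between these members was smaller in every HPB-ALL library, and the shares leave out the readthrough entry. Without KOPTK1 libraries 1, 2 and 3, 4 members were higher and 1 lower in HPB-ALL, where 33.8% and 34.2% of all genes were. Without libraries 4, 5 and 6, 4 were higher and 2 lower, where 24.3% and 26.0% of all genes were.

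**Figure D2:**
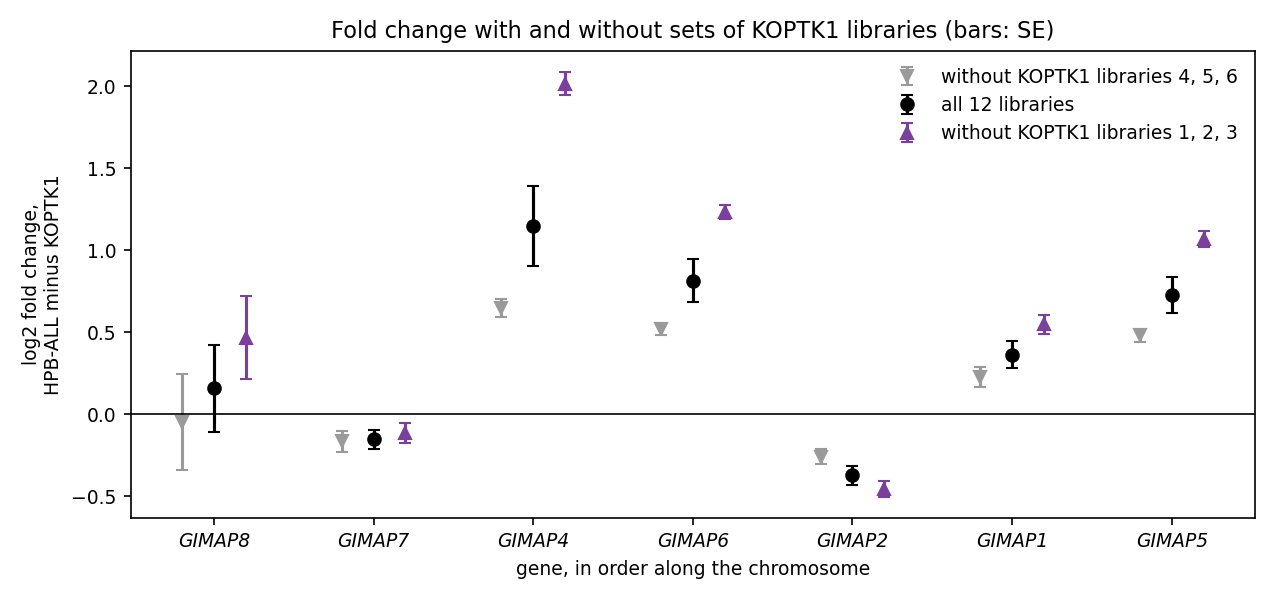
Log2 fold change of each GIMAP gene, HPB-ALL minus KOPTK1, with SE, for all 12 libraries (circles), without KOPTK1 libraries 1, 2 and 3 (upward triangles) and without KOPTK1 libraries 4, 5 and 6 (downward triangles). GIMAP4 moves most, from 0.65 to 2.02, and GIMAP8 crosses 0.

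The genes on either side of the cluster differed between the lines in both directions. Of 11 listed, 10 had a row, and 8 of these passed the filter. ZBED6CL was not analysed here, and TMEM176A and TMEM176B were at 0 to 0.291 RPKM. Of the 8, 3 were higher in HPB-ALL and 3 lower, with a median log2 fold change of 0.09, beside 30.6% and 33.2% of all genes. Without KOPTK1 libraries 1, 2 and 3 these counts were 4 and 3, AOC1 being added, and without libraries 4, 5 and 6 they were 2 and 3, REPIN1 being lost (adjusted p = 0.053). ZNF775, a zinc-finger gene 52 kb before GIMAP8, was at 2.99 to 3.73 RPKM in KOPTK1 and 2.13 to 2.97 in HPB-ALL (log2 fold change -0.36, SE 0.09, edgeR adjusted p = 0.0022). RARRES2, which encodes the chemoattractant chemerin, was lower too (-0.67, SE 0.09, adjusted p = 2.1e-05), as was ACTR3C (-0.31, adjusted p = 6.9e-04). REPIN1 was higher (0.15, SE 0.04, adjusted p = 0.0054), and LRRC61 (0.03, adjusted p = 0.51) and AOC1 (0.89, SE 0.47, adjusted p = 0.11) did not pass. AOC1 was at 3.30 (adjusted p = 6.5e-07) without libraries 1, 2 and 3 and at 0.16 (adjusted p = 0.66) without libraries 4, 5 and 6.

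On the far side, KCNH2, a potassium channel gene 200.9 kb past GIMAP5, was at 5.11, 4.92, 4.27, 1.45, 1.596 and 1.601 RPKM in KOPTK1 and at 8.05 to 9.47 in HPB-ALL (log2 fold change 1.48, SE 0.29, edgeR adjusted p = 5.3e-04). NOS3, the endothelial nitric oxide synthase gene 246.9 kb past GIMAP5, was at 0.511 to 1.79 RPKM in KOPTK1 and at 2.68 to 2.95 in HPB-ALL (1.21, SE 0.27, adjusted p = 0.0013). Like GIMAP4, both had KOPTK1 libraries 4, 5 and 6 lowest and HPB-ALL highest. Without libraries 1, 2 and 3, KCNH2 was at 2.56 and NOS3 at 2.20, and without libraries 4, 5 and 6 they were at 0.91 and 0.67.

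Of 11 genes of T-cell survival and quiescence, the processes GIMAP proteins are known for, 4 were higher in HPB-ALL and 4 lower, with a median log2 fold change of 0.05, beside 30.6% and 33.2% of all genes. IL7R, the receptor for the survival cytokine IL-7, was at 1.09, 1.17, 0.974, 0.330, 0.576 and 0.494 RPKM in KOPTK1 and at 1.36 to 1.99 in HPB-ALL (log2 fold change 1.06, SE 0.24, edgeR adjusted p = 0.0015). FOXO1, a transcription factor of quiescent T cells, was at 1.24, 1.26, 1.31, 0.747, 0.648 and 0.692 RPKM in KOPTK1 and at 1.64 to 2.17 in HPB-ALL (0.92, SE 0.17, adjusted p = 3.3e-04). Both were lowest in KOPTK1 libraries 4, 5 and 6. Without libraries 1, 2 and 3, IL7R was at 1.84 and FOXO1 at 1.46, and without libraries 4, 5 and 6 they were at 0.61 and 0.58. Also higher were the anti-apoptotic genes MCL1 (0.37, SE 0.05, adjusted p = 2.4e-05) and BCL2 (0.15, SE 0.03, adjusted p = 0.0020).

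The pro-apoptotic gene BAX was lower in HPB-ALL, at 27.5 to 29.4 RPKM against 46.4 to 69.2 (log2 fold change -1.02, SE 0.10, edgeR adjusted p = 1.2e-06). CCR7, a homing receptor, was lower (-1.55, SE 0.13, adjusted p = 3.7e-07), as were the T-lineage factor TCF7 (-0.89, SE 0.07, adjusted p = 2.8e-07) and S1PR1, which guides exit from lymphoid organs (-0.35, SE 0.04, adjusted p = 2.0e-06). The other 3, BCL2L1 (0.05), KLF2 (0.07) and LEF1 (-0.01), did not pass. The 8 genes called kept their call and direction without either set of KOPTK1 libraries, BAX being at -1.22 and -0.76, CCR7 at -1.78 and -1.24 and TCF7 at -1.03 and -0.70. Without libraries 1, 2 and 3, BCL2L1 also passed (0.10, adjusted p = 0.037).

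NOTCH1 and its targets, which drive most T-ALL, were 4 higher and 4 lower of 10, with a median log2 fold change of -0.19, beside 30.6% higher and 33.2% lower of all genes. NOTCH1 itself was lower in HPB-ALL, at 34.7 to 37.6 RPKM against 56.0 to 76.2 (log2 fold change -0.86, SE 0.07, edgeR adjusted p = 2.7e-07). HES1 (-1.02, SE 0.08), PTCRA (-0.77, SE 0.11) and MYC (-0.26, SE 0.04) were lower as well (adjusted p = 1.3e-07, 5.4e-05 and 9.3e-05). DTX1 (0.36, SE 0.05), TRIB2 (0.50, SE 0.10), HES4 (0.57, SE 0.14) and HEY1 (0.65, SE 0.23) were higher (adjusted p = 2.6e-05, 4.9e-04, 0.0025 and 0.021). NOTCH3 (-0.12) and NRARP (-0.47) did not pass. Without KOPTK1 libraries 1, 2 and 3, the counts were the same, with NOTCH1 at -0.999, TRIB2 at 0.79 and HEY1 at 1.27. Without libraries 4, 5 and 6, 3 were higher and 5 lower, HEY1 being lost (0.29, adjusted p = 0.24) and NRARP passing (-0.75, adjusted p = 0.041), with NOTCH1 at -0.68 and TRIB2 at 0.28.

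The markers of other blood cells were low. Myeloid markers (LYZ, CD14, CSF1R, MPO, CD33 and ITGAM) summed to 1.29 to 2.45 RPKM in KOPTK1 and 1.15 to 1.35 in HPB-ALL, NK markers (NCAM1, NCR1, KLRF1 and KLRD1) to 0.373 to 0.935 and 0.390 to 0.558, and erythroid markers (HBB, HBA1 and ALAS2) to 1.56 to 2.59 and 1.84 to 2.66. The endothelial markers CDH5 and VWF summed to at most 0.543 RPKM in any library. B-lineage markers (MS4A1, CD79A, CD79B and PAX5) summed to 6.04 to 25.0 RPKM in KOPTK1 and 40.7 to 47.0 in HPB-ALL, nearly all of it CD79A, and the defining genes MS4A1 and PAX5 were at or below 0.0880 RPKM. Of the 12 T-lineage markers, 4 were higher in HPB-ALL and 6 lower, beside 30.6% and 33.2% of all genes, or 4 and 7 without KOPTK1 libraries 1, 2 and 3 and 3 and 6 without libraries 4, 5 and 6. Like GIMAP4, GIMAP5 and GIMAP6, CD79A was lowest in KOPTK1 libraries 4, 5 and 6 and highest in HPB-ALL, and its part in their values was not tested.

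The genes whose levels most followed the summed GIMAP level included NAB1, CELF2, KIF23 and RNF20. Pearson's r was 0.94 to 0.99 in KOPTK1 and 0.96 to 0.99 in HPB-ALL, over 6 libraries each and among 6021 genes ranked by the lower of the lines. High values follow from this choice, and the r values are a description. The summed level itself was higher in libraries 1, 2 and 3 than in libraries 4, 5 and 6, and in libraries 10, 11 and 12 than in libraries 7, 8 and 9, and the part of these sets in the r values was not tested.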

How the data were processed

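The authors deposited 1 table per cell line with, for each Ensembl gene, estimated counts for 6 libraries, with 15.1% to 17.2% of the values of a library more than 0.001 from a whole number, although the files are named for RPKM. The submitters' processing notes list Trimmomatic 0.36, STAR 2.5.4b, Picard 2.18.7, featureCounts 1.6.2, edgeR 3.22.3 and hg38; their order and settings are not given in the sources used here. The summed exon length, also deposited, was used to compute RPKM here from library sizes scaled by TMM. The authors' columns of log2 fold change, log2 CPM, F, p-value and FDR were not used. Symbols matched 95.9% of identifiers. Strand-specific counting is not stated.

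Counts of both tables were joined, rounded, filtered with filterByExpr and tested with the quasi-likelihood test of edgeR 4.0.16 (R 4.3.3), called at a Benjamini-Hochberg adjusted p under 0.05. The 2 tables may have been made separately. Alternatives were DESeq2 1.42.0 size factors, its Wald test, no filter, a minimum of 2-fold and each library left out in turn. Fits without sets of KOPTK1 libraries, and with overlapping entries summed, were added after the data were seen. Of 200 genes changed by 1 (log2) in simulated data for 27834 genes of this comparison, 74% were recovered, and 3.27% of calls were false. The comparison itself called 17761 genes, and the simulated libraries held no sets, so these rates may not carry over.

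Named genes were the members, the other entries of the locus, SHQ1, genes beside the cluster, T-cell survival genes, NOTCH1 and its targets, cell type markers, and the 5 genes of at least 10 RPKM most alike; a few of these are not reported here and are left out of the counts and sums of their lists. The members and lists were chosen with earlier results of these data known, and the AGGAAG motif, as well as CD79A, TAL1, LMO2 and TLX3 as examples of libraries apart, after values or sequences were seen. Other steps used Python 3.11.15 with pandas 2.3.3.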

Additional observations from a re-analysis of the deposited data

Results flagged for a closer look

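GIMAP8 in KOPTK1 library 3, at 0.407 RPKM, lay far from the other KOPTK1 libraries (0.126 to 0.222 RPKM). Its gap to the nearest, as a share of the range, was 0.659, above Dixon's critical value for 6 samples. It was the only such value among 14 groups of GIMAP values looked at, and chance alone flags about 1 in 20 groups. Some other low genes were also highest in library 3, as given above, and the cause was not tested.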

How the results depend on the processing

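GIMAP1, GIMAP2, GIMAP4, GIMAP5 and GIMAP6 kept their direction and an adjusted p under 0.05 with the size factors of DESeq2, its Wald test, no filter, each library left out and either set of KOPTK1 libraries left out. A minimum of 2-fold left 1 member of the 6 called, 1 higher (GIMAP4) and 0 lower. The count of lower members was 1 with no filter and without KOPTK1 libraries 1, 2 and 3, GIMAP7 being lost (log2 fold change -0.09, adjusted p = 0.23, with no filter). Leaving out 1 library gave 5 to 6 members called, 4 to 5 higher and 1 to 2 lower. GIMAP8 reversed to -0.048 without KOPTK1 libraries 4, 5 and 6, and newly passed without library 3. The causes were not tested. No paired analysis was possible because the library columns carry no replicate number or shRNA. The alternatives set for the shRNA comparison and for RPKM values were not run, as the columns could not be matched to an shRNA and hold counts. GIMAP8 rests on 12 to 62 counts a library.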
